A study of Mus musculus with 32 samples.

Results

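The widest open regions away from gene ends were examined in C57BL/6 mouse cells enriched for blood stem cells and their progenitors. The assay was ATAC-seq, where Tn5 transposase places sequencing adapters into accessible DNA. A region of the developmental count table was taken as a member when it lay on an autosome, was 1200 bp or longer and had its midpoint more than 1 kb from both ends of every protein-coding gene span (build mm10). The rule found 1421 broad distal regions among 99037 regions (1.43%). There were 80805 distal autosomal regions in all, and 79384 of them were narrower than 1200 bp. Of 3065 autosomal regions of 1200 bp or more, the other 1644 lay at gene ends.

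The cells were LSK cells, which lack lineage markers, carry Kit and Sca-1, and include the stem cells of blood and the progenitors closest to them. The developmental series had 9 groups of untreated cells, all of the C57BL/6 strain with no transgene named in the labels. Fetal stages were E12.5 FL, E16.5 FL and E12.5 PL. Marrow stages were Perinatal BM, 1w BM, 3w BM, 4w BM, 6w BM and 8w BM. Here E is the embryonic day, w is the age in weeks, and FL and BM usually abbreviate fetal liver and bone marrow. The labels do not spell out PL. Each group had 3 libraries except 3w BM, which had 2. The library 8w BM 3 is titled 8w BM but labelled E12.5 in its stage field. It was kept in 8w BM by its title, and the counts without it are given beside the comparison of 8w BM with E12.5 FL. In a second experiment E12.5 FL cells spent 2 h in co-SHI, a medium that E16.5 hepatocytes had conditioned, or in SHI, the basic medium, with 3 libraries each. Whether the replicate libraries came from different animals or litters, or from pools, is not in the labels. The p-values therefore measure the spread between these libraries, which may be technical.

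Open chromatin away from gene ends holds most enhancers, short stretches where transcription factors displace nucleosomes and from which nearby or distant promoters are activated. Several such elements can sit side by side, and a broad accessible interval can be a cluster of them, an unannotated or alternative promoter, or a repeat. During development blood stem cells expand in the fetal liver and then move to the bone marrow, and much of the difference between cell states in blood is written in distal elements. The nearest gene is used below only as a name for a region, since no file here links an element to the gene it acts on.

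Although the rule kept midpoints more than 1 kb from gene ends, many of the broad regions held an annotated transcription start. A member of over 2000 bp can also still reach a gene end. The RefSeq start windows used here (build GRCm38.p6, 250 bases before to 50 bases after a start) covered the chromosomes of 1358 members. A start window overlapped 349 of these (25.7%), with 265 overlapping that of a protein-coding gene and 115 that of a long noncoding RNA. Among the narrower distal regions, whose median width was 540 bp, the share was 3.8%. How many of these are alternative starts inside a gene span was not counted. The following 6 windows lie wholly inside regions whose accessibility is described below. They are read 5′ to 3′ on the strand of the transcript, and capitals mark the motif words found in either strand. The GATA word searched was AGATAA. The ETS words were CCGGAA and ACAGGAAG. The RUNX word was TGTGGT, the AP-1 word was TGANTCA and the E-box word was CAGCTG. The CEBP words were TTGCGCAA and TTGCATCA, the SMAD word was GTCTAGAC and the KLF word was GGGTGTGG. No word contains another.
Rarg, chr15:102246451-102246750, minus strand: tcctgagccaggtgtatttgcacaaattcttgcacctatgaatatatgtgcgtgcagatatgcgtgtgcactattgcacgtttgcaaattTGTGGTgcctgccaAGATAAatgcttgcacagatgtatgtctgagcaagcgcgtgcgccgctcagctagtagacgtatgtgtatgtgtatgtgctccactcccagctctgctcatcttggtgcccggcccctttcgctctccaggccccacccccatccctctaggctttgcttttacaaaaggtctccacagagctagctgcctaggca
Maff, chr15:79347270-79347569, plus strand: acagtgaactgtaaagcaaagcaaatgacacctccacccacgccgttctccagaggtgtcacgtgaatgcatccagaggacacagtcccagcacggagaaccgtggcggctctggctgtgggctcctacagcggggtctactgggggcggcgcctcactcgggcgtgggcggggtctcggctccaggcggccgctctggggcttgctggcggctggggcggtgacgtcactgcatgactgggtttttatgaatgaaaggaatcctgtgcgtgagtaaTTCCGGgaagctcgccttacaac
D730003I15Rik, chr1:191224204-191224503, plus strand: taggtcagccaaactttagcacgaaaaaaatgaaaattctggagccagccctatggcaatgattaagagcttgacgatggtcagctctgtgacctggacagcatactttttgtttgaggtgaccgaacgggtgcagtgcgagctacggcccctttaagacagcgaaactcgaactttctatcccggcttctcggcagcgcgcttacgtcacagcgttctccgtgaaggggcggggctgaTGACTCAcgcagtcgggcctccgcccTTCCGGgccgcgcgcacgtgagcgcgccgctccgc
Prkag2, chr5:25100593-25100892, minus strand: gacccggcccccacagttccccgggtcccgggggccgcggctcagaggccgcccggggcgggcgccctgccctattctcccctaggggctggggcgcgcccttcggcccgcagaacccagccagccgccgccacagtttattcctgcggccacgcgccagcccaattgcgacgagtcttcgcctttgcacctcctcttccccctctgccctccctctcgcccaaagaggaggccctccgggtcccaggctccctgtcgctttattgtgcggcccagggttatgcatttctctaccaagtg
Zdbf2, chr1:63273019-63273318, plus strand: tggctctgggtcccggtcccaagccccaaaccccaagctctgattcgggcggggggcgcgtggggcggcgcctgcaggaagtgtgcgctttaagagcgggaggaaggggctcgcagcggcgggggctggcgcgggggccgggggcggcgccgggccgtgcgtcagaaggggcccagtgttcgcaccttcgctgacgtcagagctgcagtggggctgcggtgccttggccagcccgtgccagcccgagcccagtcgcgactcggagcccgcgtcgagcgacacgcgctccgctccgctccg
Kcns3, chr12:11150324-11150623, minus strand: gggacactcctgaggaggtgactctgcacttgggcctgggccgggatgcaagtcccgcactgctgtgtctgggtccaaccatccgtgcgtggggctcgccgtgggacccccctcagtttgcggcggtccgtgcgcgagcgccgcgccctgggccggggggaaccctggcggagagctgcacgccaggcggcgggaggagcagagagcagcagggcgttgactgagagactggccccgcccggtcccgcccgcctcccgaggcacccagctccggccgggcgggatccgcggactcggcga
The Rarg, Maff and D730003I15Rik windows are shown because their regions were less accessible in E12.5 FL than in E12.5 PL, and the other 3 because theirs differed between stages. The Rarg window held a GATA and a RUNX word at 51.7% G+C, and the Maff window an ETS word at 61.3%. The window of the noncoding RNA D730003I15Rik, in the region nearest Atf3, held an AP-1 and an ETS word. The Prkag2, Zdbf2 and Kcns3 windows held none of the words at 69.7%, 74.7% and 74.0% G+C, which says only that these letters are absent from these windows.

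Over all 401 start windows that lay wholly inside a broad distal region, in 303 regions, the median G+C content was 63.3%, against 52.7% over the 32851 windows of the annotation. The median number of CpG pairs was 22, against 7. An ETS word was in 22.2% of the windows inside broad regions and 17.9% of all windows, and an E-box word in 18.5% and 16.3%. A GATA word was in 5.24% and 11.2%, a RUNX word in 11.2% and 16.8%, and an AP-1 word in 4.49% and 7.81%. The KLF word was in 3.74% and 3.56%, the CEBP words in 0.998% and 1.08%, and the SMAD word in 0.249% and 0.213%. A match of letters is a description and not a binding site.

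A few broad regions also held or flanked microRNA genes. A microRNA hairpin lay inside 5 members, and 24 had one within 5000 bp. Mature sequences of the better-known ones follow (RefSeq, GRCm38.p6), with the seed, bases 2 to 8, in capitals.
let-7i-5p: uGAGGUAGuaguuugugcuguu
let-7e-5p: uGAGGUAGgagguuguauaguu
miR-125a-5p: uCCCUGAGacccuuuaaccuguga
miR-34b-5p: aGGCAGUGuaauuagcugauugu
miR-17-5p: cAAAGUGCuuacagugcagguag
miR-20a-5p: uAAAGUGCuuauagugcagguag
The let-7 pair share a seed, as do miR-17-5p and miR-20a-5p of the miR-17 to miR-92a cluster. The let-7i hairpin lay inside the region chr10:122985143-122986704 near Mon2. The let-7e and miR-125a hairpins began 1268 and 1728 bp from the widest region of all, in Spaca6. The miR-34b hairpin lay inside the region chr9:51102922-51104249 in Btg4, and the miR-17 and miR-20a hairpins lay 2101 and 2587 bp from the region chr14:115040071-115041570, whose nearest protein-coding gene was Gpc5. The ATAC counts of these regions say nothing of the level of the mature RNAs.

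By width, the quantity that chose them, the members ran from 1200 to 2971 bp with a median of 1359 bp and quartiles of 1270 and 1493 bp. There were 346 of 1500 bp or more and 37 of 2000 bp or more. Over all regions the median was 551 bp, and 31.3% were exactly 501 bp wide, the smallest width. Just inside the limit, at 1200 bp, were regions in Mcu (chr10:59577728-59578927), 32346 bp from Csf2 (chr11:54214324-54215523) and 58934 bp from Atl2 (chr17:79954539-79955738). Just outside it, at 1199 bp, were regions 7869 bp from Pdgfra (chr5:75142854-75144052), 34518 bp from Lmo1 (chr7:109209126-109210324) and inside Ppp2cb (chr8:33608076-33609274). The widest was chr17:17826114-17829084 in Spaca6, followed by chr17:4994039-4996904 in Arid1b, which encodes a subunit of the BAF chromatin remodelling complex. Next came 2664 bp in Wls, which carries Wnt proteins to the cell surface, and 2488 bp in the kinase gene Map3k1.

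Most were not single wide peaks. The deposited peak lists were called library by library, and in only 43 of 1421 members (3.03%) did any of the 26 libraries have a peak of 1200 bp or more. The widest peak of a member in any library had a median of 532 bp. At least 2 separate peaks were called in the same library for 1220 members (85.9%) and at least 3 for 452 (31.8%). Peak summits pooled over the libraries, with those within 100 bp joined, fell into a median of 3 groups per member. The outermost summit lay a median of 250 bp from the edge of its region, and within 240 to 260 bp in 26.9%. The label of widest open regions therefore holds for the authors' merged intervals and, for most members, not for single peaks. Exceptions included the regions in Impact (chr18:12973135-12974609), with an unbroken stretch of peak of 1557 bp that reached past the region, and Maff (chr15:79347183-79348553), with 1358 bp.

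**Figure D1:**
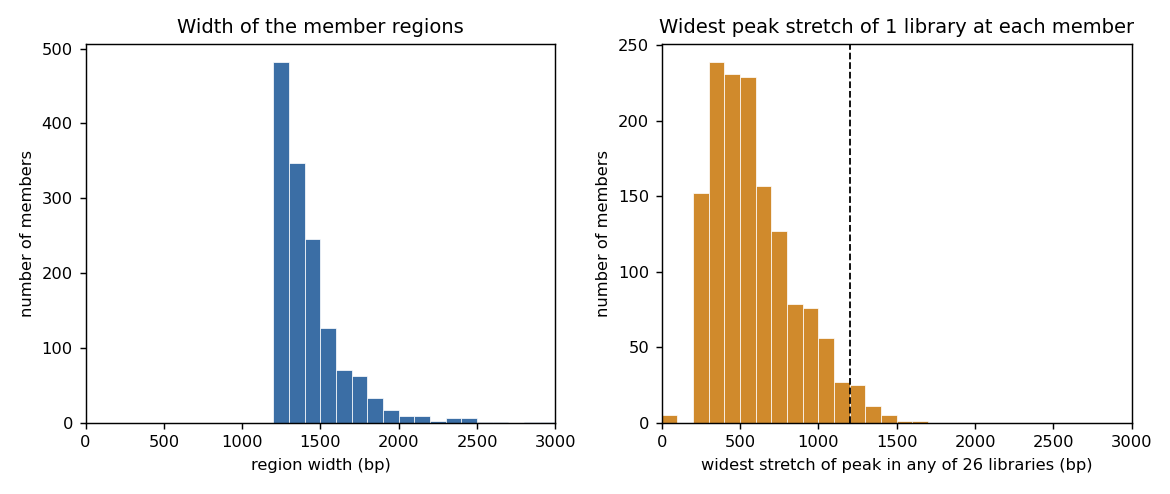
Width in bp of the 1421 broad distal regions (left) and of the widest unbroken stretch of peak in any 1 of 26 libraries that overlapped each (right, dashed line at 1200 bp), with the number of regions on the y axes. The region widths start at 1200 bp, while the median stretch was 534 bp and 43 regions reached the line.

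By position, 889 members (62.6%) were inside a protein-coding gene span, 380 (26.7%) were intergenic within 50 kb of one and 152 (10.7%) had none within 50 kb. The median distance to a gene end was 15109 bp. They had 1271 different nearest genes, of which 106 had 2 or more members and 12 had 3 or more. Only 54 members (3.8%) lay within 12500 bp of another. Exons and introns were not distinguished.

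Total counts over the table ran from 2845113 to 10167340 per library, and the broad distal regions took 3.55% to 4.16% of them. Gene-end regions took 33.2% to 46.4%. Levels below are in CPM, a region's count relative to the library total after scaling by the TMM factors of edgeR, which ran from 0.877 to 1.22. The total of the cultured libraries was 7512258 to 20092146. Gene-end regions of the gate gene Kit had group means of 32.1 to 48.3 CPM, and Ly6a, which encodes Sca-1, had no gene-end region. Replicates differed by more than sampling noise, so each library counted as 1 sample.

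The broad regions were more accessible per base than the narrower ones. Their median level was 14.0 CPM per kb, against 6.76 CPM per kb in the narrower distal regions and 21.6 CPM per kb in the broad regions at gene ends. These widths were made from peaks of the same libraries, so the level is a description with no test. The median of the mean CPM over the 9 groups was 19.7, with quartiles of 12.6 and 32.4. By group, the median member had 18.4 CPM in E12.5 FL, 17.5 in E16.5 FL, 19.8 in Perinatal BM, 20.9 in 1w BM, 20.2 in 3w BM, 20.3 in 4w BM, 19.8 in 6w BM, 19.6 in 8w BM and 18.8 in E12.5 PL. The highest group mean was a median of 2.15 times the lowest, under 2 times for 634 members (44.6%) and over 4 times for 190 (13.4%). E12.5 PL was an end of the range more often than any other group, the highest for 522 members and the lowest for 467.

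Peaks were found in more of the broad regions in bone marrow than in fetal liver libraries. On average 41.6% of members held a peak in an E12.5 FL library, 26.2% in E16.5 FL, 60.8% in Perinatal BM, 77.1% in 1w BM, 81.3% in 3w BM, 69.3% in 4w BM, 69.5% in 6w BM, 72.5% in 8w BM and 54.9% in E12.5 PL. The shares moved with the number of peaks called, which averaged 21726 in E12.5 FL, 13846 in E16.5 FL, 42288 in 1w BM and 30004 in E12.5 PL. The narrower distal regions moved the same way, with 13.1%, 6.7%, 31.5% and 18.5% in those groups. The part of peak calling depth in these shares was not tested. The median member held a peak in 17 of the 26 libraries, 109 members in every library and 5 in none.

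**Figure D2:**
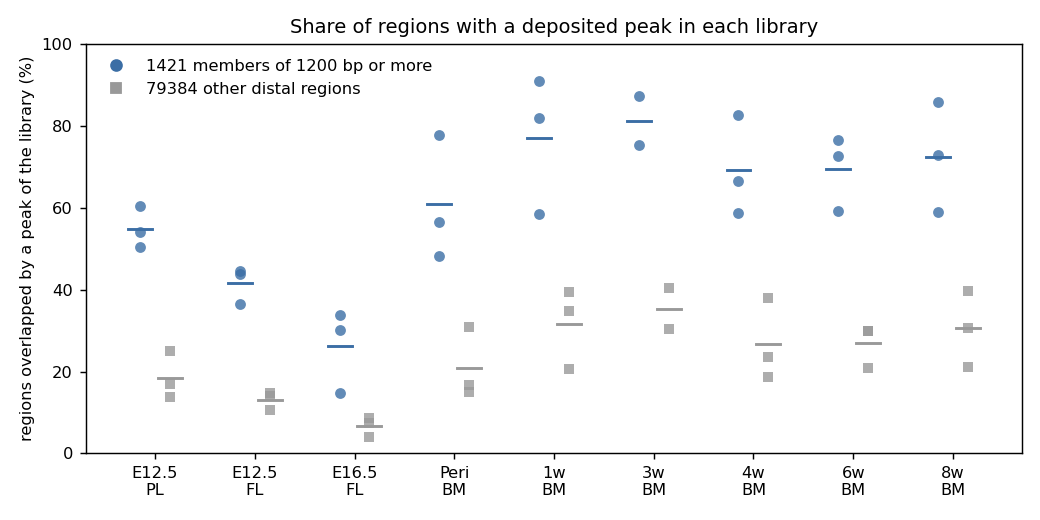
Percent of the 1421 broad distal regions (blue dots) and of 79384 narrower distal regions (grey squares) overlapped by a deposited peak in each library, by group, with short bars at the group means. Peri stands for Perinatal. E16.5 FL libraries have the lowest shares, with a mean of 26.2% of broad regions, and 3w BM libraries have the highest mean, 81.3%.

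The tests below were fitted with the quasi-likelihood test of edgeR on the whole table, with Benjamini-Hochberg adjustment over all regions tested at 0.05. Across the 9 groups, 1058 members (74.5%) differed, against 64.4% of all regions. Without E12.5 PL, 545 (38.4%) differed across the other 8 groups, against 26.1% of all regions. The broad regions at gene ends were near the members in both, at 74.1% across the 9 groups and 35.5% across the 8. The members carried more counts than the narrower distal regions, with a median of 18.4 against 4.21 CPM in E12.5 FL. The part of this difference in the shares called was not tested.

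Between E12.5 FL and E12.5 PL, 359 broad regions were higher in FL (25.3%, against 23.1% of all regions) and 437 were lower in FL (30.8%, against 26.4%). The median log2 fold change of E12.5 FL over E12.5 PL was -0.11 over the members and 0.09 over all regions. This split depended on the scaling. It was 274 higher and 588 lower with the size factors of DESeq2, 506 and 279 with total counts, and 367 and 354 with cyclic loess offsets, under which the members' median was -0.0036. The all-region median moved with the scaling, to -0.12, 0.38 and -0.02. Relative to it, the members' median was 0.20 lower with TMM, size factors and total counts, and 0.02 higher with loess.

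Called regions that held an annotated start were mostly lower in E12.5 FL. Of the 349 that held one, 32 were higher and 171 lower in E12.5 FL, with a median log2 fold change of -0.46. Of the 1009 with none, 311 were higher and 249 lower, with a median of 0.07. Broad regions at gene ends gave 99 higher and 918 lower of 1644, and the narrower distal regions 20487 higher and 17763 lower. The start windows of lower regions, 212 windows in 150 members, had a median G+C of 64.7%, and those of higher regions, 27 windows in 25 members, 57.7%. Base composition and the fold change moved together here, and its part was not tested.

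Markers of other cells also moved with this comparison. Gene-end regions of the 4 endothelial markers summed to group means of 48.9 to 64.5 CPM in E12.5 FL and the later stages and to 94.3 CPM in E12.5 PL. Of these, Cdh5 had 1.06 to 5.12 CPM in the other groups and 17.4 CPM in E12.5 PL, and Tek 3.94 to 7.89 CPM and 16.2 CPM. Kdr reached 47.9 CPM in 1w BM and had 50.8 CPM in E12.5 PL, and Pecam1, at 10.9 CPM in E12.5 FL, was lower in E12.5 PL, at 9.89 CPM. The 3 of 4 trophoblast markers with a region summed to 38.7 to 49.4 CPM in the other groups and 76.4 CPM in E12.5 PL, with Krt8 at 19.98 to 33.7 CPM and 52.4 CPM. Krt18 was also highest in E12.5 PL, while Cdx2 was highest in E16.5 FL, at 13.6 CPM against 12.6 CPM in E12.5 PL. The 4 macrophage markers summed to 43.4 to 55.9 CPM in the other groups and 77.5 CPM in E12.5 PL. Mertk had 12.48 to 18.7 CPM there and 64.7 CPM in E12.5 PL, while Csf1r, Adgre1 and Cx3cr1 were lower in E12.5 PL. Of 4 hepatocyte markers only Apoa1 had a gene-end region, and of 4 mast cell markers 3 had one. The part of other cells in the differences between E12.5 FL and E12.5 PL was not tested. In bulk libraries, fewer cells with a region open and less opening per cell cannot be told apart.

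Among regions higher in E12.5 FL, the region chr11:5214483-5215943 inside Kremen1, whose product is a receptor for Dickkopf inhibitors of Wnt signalling, had 29.4, 28.8 and 33.9 CPM in E12.5 FL, against 5.77, 4.95 and 6.48 CPM in E12.5 PL (log2 fold change 2.42 ± 0.23 (SE), adjusted p = 3.3e-12). The region chr3:131207927-131209321 inside Lef1, a transcription factor of the Wnt pathway, had 37.8, 37.2 and 44.2 CPM in E12.5 FL, against 7.22, 8.1 and 10.6 CPM in E12.5 PL (log2 fold change 2.19 ± 0.23 (SE), adjusted p = 4.6e-11). In both regions every FL library lay above every PL library, which was a condition for naming them. The region 18748 bp from Ifitm3, an interferon-induced inhibitor of virus entry, had 24.5, 22.2 and 25 CPM in E12.5 FL, against 5.05, 3.83 and 6.25 CPM in E12.5 PL (log2 fold change 2.24 ± 0.24 (SE), adjusted p = 6.3e-11). The region 58934 bp from Atl2 had 36.7, 37.9 and 42.2 CPM in FL and 7.7, 7.65 and 6.48 CPM in PL. Its log2 fold change was 2.42 ± 0.21 (SE). The regions nearest Cyria (2.30), Gpr65 (2.12), Bcl2l14 (2.04), Lrrc63 (2.00), Adam6b (1.80) and Ffar2 (1.72) were also higher in E12.5 FL by these log2 fold changes. Gpr65 is a proton-sensing receptor and Ffar2 a receptor for short-chain fatty acids.

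Among regions lower in E12.5 FL, the largest fold of those named was near Tfpi, which encodes the tissue factor pathway inhibitor of endothelium. The region chr2:84518617-84519921, 42494 bp from the gene, had 1.81, 3.51 and 2.45 CPM in E12.5 FL, against 44.7, 49.3 and 36.6 CPM in E12.5 PL (log2 fold change -4.06 ± 0.37 (SE), adjusted p = 1.2e-12). It held a peak in 3 of the 26 libraries. The region chr16:29945274-29946497, 119472 bp from Hes1, a repressor induced by Notch, had 10.6, 15 and 11.3 CPM in E12.5 FL, against 59.2, 56.5 and 54.1 CPM in E12.5 PL (log2 fold change -2.20 ± 0.23 (SE), adjusted p = 2.4e-11). The region chr9:64049657-64050970, 28228 bp from Smad6, an inhibitor of BMP signalling, had 12.2, 10.3 and 10.5 CPM in E12.5 FL, against 60.4, 60.3 and 53.4 CPM in E12.5 PL (log2 fold change -2.39 ± 0.22 (SE), adjusted p = 2.4e-12). The PL libraries of these regions were close to each other. None overlapped an FL library, which the choice of named regions required.

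The region chr15:102246249-102248120 in Rarg, the gene of a retinoic acid receptor, which holds the Rarg window shown above, had 35.1, 29.3 and 33.6 CPM in E12.5 FL, against 129, 96.3 and 134 CPM in E12.5 PL (log2 fold change -1.87 ± 0.18 (SE), adjusted p = 9.2e-12). The region chr19:23134729-23136332, 5696 bp from Klf9, a zinc finger factor induced by glucocorticoid and thyroid hormones, had 18.1, 16.2 and 19.9 CPM in E12.5 FL, against 98.4, 106 and 108 CPM in E12.5 PL (log2 fold change -2.52 ± 0.17 (SE), adjusted p = 2.4e-16). The Klf9 region also differed between stages, as given below. The region chr4:32249650-32251521 in Bach2, a repressor active in lymphocytes, had 23.1, 29 and 26.7 CPM in FL and 85.6, 99.9 and 96 CPM in PL (log2 fold change -1.84). The regions nearest Rbms1 (-2.18), Sema6d (-2.15), Pdlim7 (-1.94) and Schip1 (-1.90) were lower in E12.5 FL as well. Sema6d encodes a transmembrane semaphorin and Pdlim7 a scaffold protein of the actin skeleton.

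**Figure D3:**
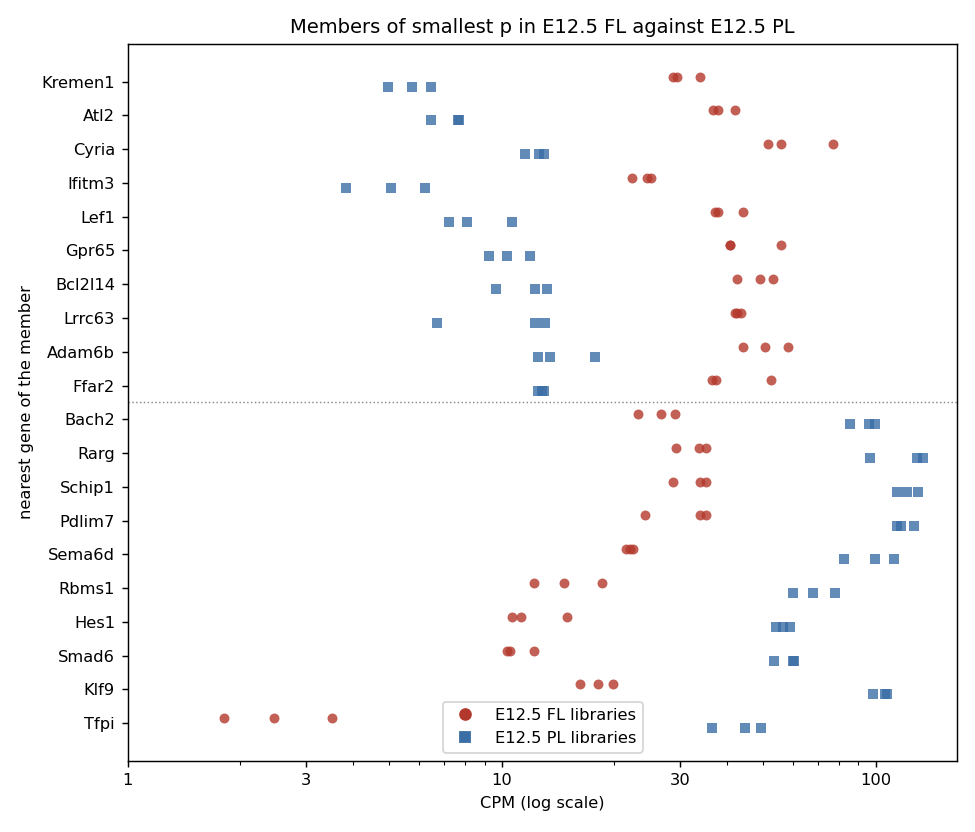
CPM on a log axis in each library of E12.5 FL (red dots) and E12.5 PL (blue squares) for the 10 named broad regions higher in FL and the 10 lower in FL, labelled by nearest gene. The 20 were chosen among regions where no FL library overlaps a PL library. The region nearest Tfpi is farthest apart, at 1.81 to 3.51 CPM in FL and 36.6 to 49.3 CPM in PL.

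Between E16.5 FL and E12.5 FL, 0 of the 1421 regions passed the test in either direction, and 0.00101% of all regions did. At an unadjusted p under 0.05 there were 127 members, beside 7190 of all 99005 regions tested, and DESeq2 also called 0. A change between the fetal liver stages was not detectable in any of these regions with 3 libraries a group.

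Perinatal BM was the first bone marrow stage, and it is set against E16.5 FL. Here 167 broad regions were higher in Perinatal BM (11.8%, against 6.66% of all regions) and 33 were lower (2.32%, against 1.36%). Of the broad regions at gene ends, 10.6% were higher and 0.791% lower. The median log2 fold change was 0.18 over the members and -0.04 over all regions. The excess of higher calls depended on the scaling, with 113 higher and 37 lower under size factors, 59 and 55 under total counts, 10 and 81 under loess offsets and 60 and 45 when the 2 groups were fitted alone. The members' median turned to -0.01 with total counts, where the all-region median was -0.23, and to -0.17 with loess offsets. It also rested on single libraries: 69 were higher without E16.5 FL 1 and 67 without Perinatal BM 2, and 16 were lower without either of these. The share of counts at gene ends also moved with this comparison, with a mean of 39.4% in Perinatal BM and 35.5% in E16.5 FL. E16.5 FL 1 had the smallest share, 33.2%, with 9361 peaks and the highest TMM factor. The part of these library differences in the calls was not tested beyond the counts without each library.

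The region chr6:108476663-108478035 in Itpr1, which encodes a calcium release channel of the endoplasmic reticulum, had 39.8, 57.8 and 38.9 CPM in Perinatal BM and 14.7, 20.5 and 26.6 CPM in E16.5 FL (log2 fold change 1.15 ± 0.21 (SE), adjusted p = 0.00027). The region chr3:133338688-133339926 in Ppa2, a mitochondrial pyrophosphatase gene, had 99.9, 122 and 94.7 CPM in Perinatal BM and 43.7, 46.3 and 60.4 CPM in E16.5 FL (log2 fold change 1.08 ± 0.19 (SE), adjusted p = 0.00014). The region chr1:166137454-166138659 in Gpa33 had 18.6, 29.4 and 29.2 CPM in Perinatal BM and 10.8, 11 and 8.56 CPM in E16.5 FL, a log2 fold change of 1.35. In each of these the lowest perinatal library was above the highest fetal liver library, as the choice required. The region 22792 bp from B4galt1, a galactosyltransferase gene, had 27, 47 and 46.5 CPM in Perinatal BM and 16.9, 18.8 and 17.4 CPM in E16.5 FL (log2 fold change 1.19 ± 0.21 (SE), adjusted p = 0.00012). Also higher were the regions nearest Cflar (1.25), an inhibitor of caspase 8 activation, Trappc9 (1.16), Cdh26 (1.14), Ctif (1.06), Fbxl18 (1.05) and the sphingomyelin synthase gene Sgms2 (1.01).

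On the lower side, the region chr11:116019274-116021045, 1802 bp from H3f3b, a gene of a replacement variant of histone H3, had 11.9, 9.92 and 22.1 CPM in Perinatal BM and 60.2, 84.3 and 68.2 CPM in E16.5 FL (log2 fold change -2.29 ± 0.29 (SE), adjusted p = 1.2e-06). The region 2071 bp from Odc1, the ornithine decarboxylase of polyamine synthesis, had 21.2, 23.1 and 20.3 CPM in Perinatal BM and 39.8, 50.03 and 41.3 CPM in E16.5 FL (log2 fold change -1.02 ± 0.22 (SE), adjusted p = 0.0013). Both genes have processed copies in the mouse genome, and the sources used here do not give how reads that fit several places were handled. Regions nearest Kcnh6 (-1.28) and Slc47a1 (-1.27) were lower as well. Several others of the lower regions lay at the ends of chromosome sequences, and these are described separately below.

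Few broad regions passed the test between the first weeks after birth. Between 1w BM and Perinatal BM, 1 region was higher and 5 were lower, and 0.181% of all regions were called in either direction. This count ran from 0 without Perinatal BM 1 and 1 without 1w BM 1 to 11 without E12.5 PL 2 and 12 without Perinatal BM 2. The higher one was in Lrp1 (chr10:127563413-127564731), a receptor of the LDL receptor family (log2 fold change 0.77, adjusted p = 0.041). Its call was lost in 14 of 35 alternative fits, among them size factors, total counts, loess offsets, the 2 groups alone and 9 that left out 1 library. The region chr13:74528468-74529883, nearest Zfp825, had 4.86, 9.26 and 10.1 CPM in 1w BM and 29, 20.2 and 20.3 CPM in Perinatal BM (log2 fold change -1.50 ± 0.30 (SE), adjusted p = 0.0076). Like every call of 1w BM against Perinatal BM, this one was lost without Perinatal BM 1. Between 3w and 4w BM together and 1w BM, 6 regions were higher and 11 lower, and 0.81% of all regions were called. There were 9 without 1w BM 1 or 1w BM 2 and 11 without 3w BM 2.

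The region inside Peg3, a paternally expressed imprinted gene of a zinc finger protein, was less accessible from the first weeks after birth on. The region chr7:6727243-6728975 had 85.8, 136 and 107 CPM at E12.5 FL, 74.7, 65.8 and 59.9 CPM at E16.5 FL, and 97.9, 79.3 and 61.5 CPM at Perinatal BM. It then had 44.5, 37 and 40.8 CPM in 1w BM, 7.85 and 9.6 CPM in 3w BM and 9.35, 10.8 and 7.12 CPM in 4w BM. Levels stayed low later, at 11.1, 13.7 and 9 CPM in 6w BM and 6.75, 6.71 and 9.05 CPM in 8w BM, while the E12.5 PL libraries had 113, 111 and 121 CPM. The 1w BM libraries lay between, below each perinatal and above each later library. The fall of 1w BM against Perinatal BM passed the test (log2 fold change -0.96 ± 0.18 (SE), adjusted p = 0.0031) but was lost without Perinatal BM 1. That of 3w and 4w BM against 1w BM passed it in every fit (log2 fold change -2.20 ± 0.17 (SE), adjusted p = 1.5e-13). The log2 fold change of 8w BM over E12.5 FL, -3.87 ± 0.21 (SE), was the lowest of the members named for that comparison. Peaks were called there in 15 libraries.

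The region near Klf9 took the opposite course over the same weeks. It had 18.1, 16.2 and 19.9 CPM at E12.5 FL, 15.7, 23 and 20.8 CPM at E16.5 FL, and 23.8, 35.1 and 31.2 CPM at Perinatal BM. In bone marrow it had 34, 33.8 and 39.6 CPM in 1w BM, 74.9 and 76.8 CPM in 3w BM, 83.9, 90.1 and 87.8 CPM in 4w BM, 86.5, 83 and 89.5 CPM in 6w BM and 85.7, 109 and 81.9 CPM in 8w BM. The step of 3w and 4w BM over 1w BM passed the test (log2 fold change 1.17 ± 0.15 (SE), adjusted p = 1.5e-06), and all libraries from 3w on were above all at 1w. The adult level was close to that of E12.5 PL, a comparison not tested. The region chr9:107279756-107281235 in Mapkapk3, a kinase downstream of p38, moved in the same step, with 95.2 and 114 CPM in 3w BM and 92.8, 108 and 107 CPM in 4w BM against 42.4, 31 and 61.6 CPM in 1w BM (log2 fold change 1.17 ± 0.19 (SE), adjusted p = 0.00027). Its 3 libraries of E12.5 FL had 22, 25.3 and 27.5 CPM. It was one of the few members with an unbroken peak over 1200 bp, of 1221 bp.

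Other calls in this step were a region in Plk5 (1.31, adjusted p = 0.0055), higher at 3w and 4w, and regions in Zdbf2 and Kremen1, lower. The Zdbf2 region, at the start of another imprinted gene shown above, had 7.16 and 6.11 CPM in 3w BM and 4.91, 8.79 and 6.91 CPM in 4w BM against 15.1, 16.7 and 16.1 CPM in 1w BM (log2 fold change -1.22 ± 0.24 (SE), adjusted p = 0.0035). The Kremen1 region, high in E12.5 FL, was lower at 3w and 4w than at 1w by a log2 fold change of -0.92, adjusted p = 0.00098. The call for Plk5 was lost when some single libraries were left out, as were those for Rapgef4, Zfp825 and Slc4a4.

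**Figure D4:**
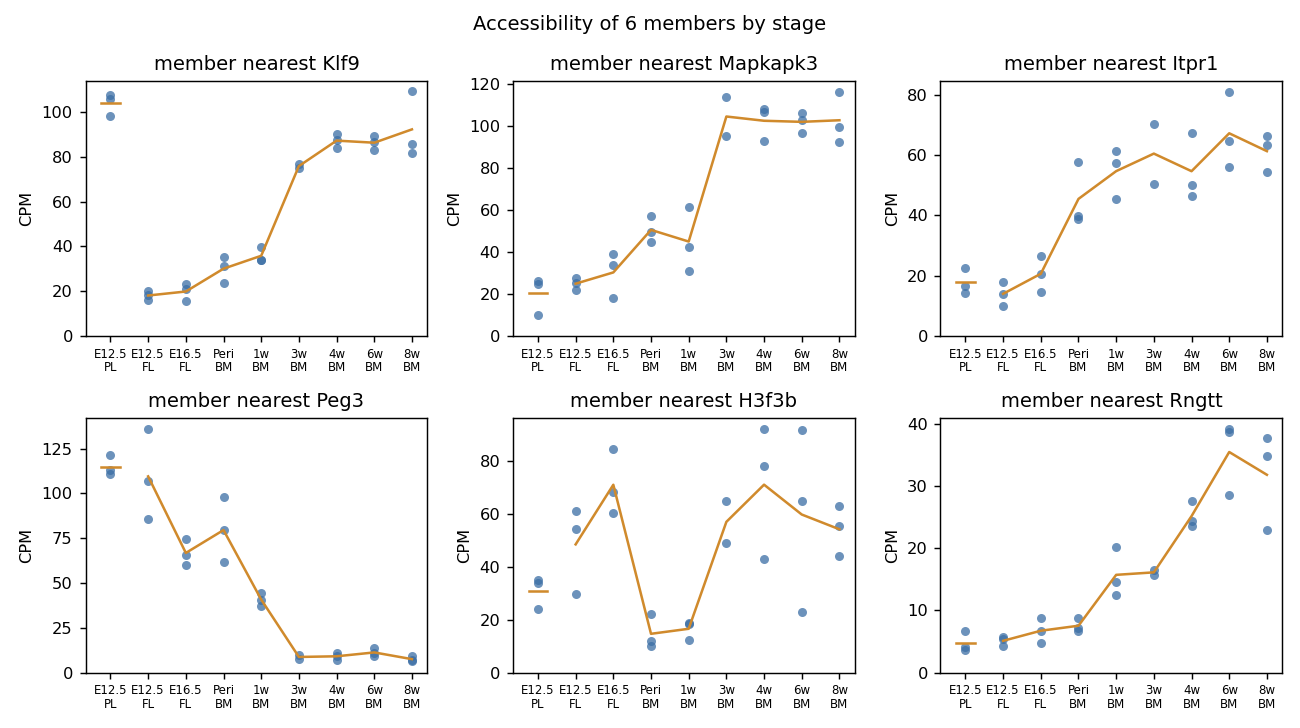
CPM in each library (dots) by stage for the broad regions nearest Klf9, Mapkapk3, Itpr1, Peg3, H3f3b and Rngtt, with a line through the group means of E12.5 FL to 8w BM and a short bar at the mean of E12.5 PL. Peri stands for Perinatal. The Klf9 and Mapkapk3 regions step up between 1w and 3w, Itpr1 between E16.5 FL and Perinatal BM, Rngtt climbs until 6w, and Peg3 drops to 6.71 to 13.7 CPM from 3w on.

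With 6w and 8w BM set against Perinatal and 1w BM, 64 regions were higher (4.50%, against 3.69% of all regions) and 87 lower (6.12%, against 3.78%). The split was 48 and 134 with total counts and 52 and 122 with loess offsets. The higher count was 40 without 6w BM 2, 41 without 6w BM 3, 42 without 8w BM 1 and 39 without 8w BM 2. The region chr4:33289302-33290556, 20371 bp from Rngtt, the mRNA capping enzyme gene, had 28.5, 38.7 and 39.2 CPM in 6w BM and 34.8, 37.7 and 23 CPM in 8w BM against 6.68, 8.81 and 7.11 CPM in Perinatal BM and 20.2, 12.46 and 14.5 CPM in 1w BM (log2 fold change 1.61 ± 0.17 (SE), adjusted p = 2.7e-10). The older libraries were all above the younger ones, a condition for naming the region here. The region 1414 bp from Nfkbiz, an inflammatory regulator of the IkappaB family, had 34, 25.2 and 53.8 CPM in 6w BM and 28.8, 34.1 and 27.8 CPM in 8w BM against 13.1, 17.8 and 14 CPM in Perinatal BM and 16.8, 9.26 and 20.7 CPM in 1w BM (log2 fold change 1.10 ± 0.16 (SE), adjusted p = 2.4e-06). The region nearest Zc3h12a, an RNase gene that limits inflammatory mRNAs, had a log2 fold change of 1.05, and that in Rere one of 1.06.

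The H3f3b and Odc1 regions, low in Perinatal BM, were high again in older marrow. The H3f3b region had 91.5, 22.9 and 64.6 CPM in 6w BM and 55.4, 43.9 and 62.9 CPM in 8w BM against 11.9, 9.92 and 22.1 CPM in Perinatal BM and 18.3, 12.46 and 18.8 CPM in 1w BM (log2 fold change 1.85 ± 0.20 (SE), adjusted p = 8.3e-10). The spread among the 6w libraries was wide, and peaks were called in 5 of 26 libraries. The Odc1 region had 72, 40.9 and 101 CPM in 6w BM and 49.9, 50.1 and 47.7 CPM in 8w BM, with a log2 fold change of 1.18 ± 0.15 (SE). Neither gives a one-way course over the stages.

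Of the regions lower in 6w and 8w BM, that at a start of Kcns3, a potassium channel subunit gene shown above, had 3.95, 7.06 and 5.3 CPM in 6w BM and 3.68, 6.06 and 6.63 CPM in 8w BM against 15.1, 18.4 and 10.7 CPM in Perinatal BM and 13.8, 9.97 and 10.6 CPM in 1w BM (log2 fold change -1.25 ± 0.20 (SE), adjusted p = 9.4e-06). The regions in Dbt (-1.58), Rnf216 (-1.45), Slc4a4 (-1.30), Lsp1 (-1.23) and Foxp4 (-1.19), and those nearest Tenm3 (-1.17) and Bdh1 (-1.05), were lower by these log2 fold changes. Dbt encodes a subunit of the branched-chain keto acid dehydrogenase and Slc4a4 a bicarbonate transporter.

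From E12.5 FL to adult marrow, 250 broad regions were higher in 8w BM (17.6%, against 10.7% of all regions) and 101 lower (7.11%, against 5.7%). Of the broad regions at gene ends, 14.5% were higher and 6.45% lower. The median log2 fold change of 8w BM over E12.5 FL was 0.12 over the members and -0.05 over all regions. The split was 180 higher and 142 lower with size factors, 147 and 199 with total counts, 81 and 256 with loess offsets, 208 and 155 with the 2 groups fitted alone and 200 and 139 with DESeq2. The all-region median was -0.14 with size factors, -0.25 under total counts and -0.07 under loess, and the members' median was 0.17 above it with size factors and total counts and 0.13 below it with loess. Without 8w BM 2 there were 144 higher, and the members' median was 0.07. Without 8w BM 3, whose labels disagree, 239 were higher and 83 lower. The 250 higher regions had a median of 20.8 CPM in E12.5 FL, 21.5 in E16.5 FL, 30.4 in Perinatal BM, 32.9 in 1w BM, 36.6 in 3w BM, 34.8 in 4w BM, 39.1 in 6w BM and 37.3 in 8w BM. The 101 lower ones had 20.9, 17.9, 17.0, 14.5, 12.1, 11.9, 11.8 and 11.0 CPM in the same order. The ends of both series are what chose these regions. Of the 250 and 101, 93 and 19 were also called in the same direction in Perinatal BM against E16.5 FL, a comparison that shares no library with this one. The 93 are 37.2% of the 250 and 55.7% of the 167, and the 19 are 18.8% of the 101 and 57.6% of the 33. Both comparisons set marrow against fetal liver in a single fit with shared scaling. The same overlap over all regions was not counted.

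**Figure D5:**
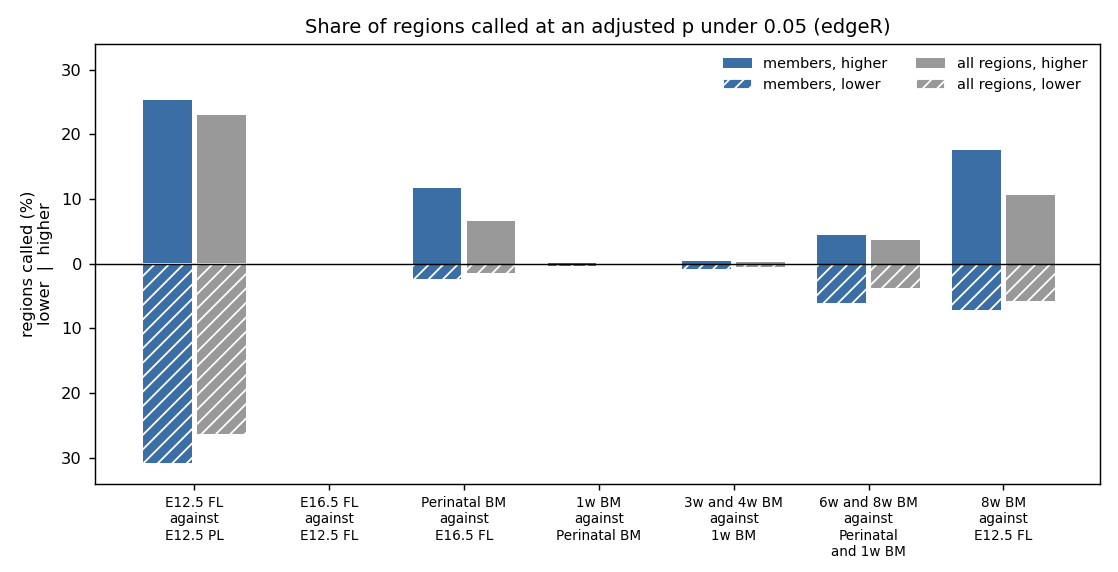
Percent of the 1421 broad distal regions (blue) and of all regions tested (grey) called by edgeR at an adjusted p under 0.05 in each of 7 comparisons, with higher calls drawn upward and lower calls hatched downward. E12.5 FL against E12.5 PL has the most calls, at 25.3% higher and 30.8% lower among broad regions, and E16.5 FL against E12.5 FL has none among them.

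The Rngtt region had 34.8, 37.7 and 23 CPM in 8w BM and 4.3, 5.39 and 5.64 CPM in E12.5 FL (log2 fold change 2.64 ± 0.26 (SE), adjusted p = 4.3e-11). The Klf9 region had a log2 fold change of 2.36 ± 0.17 (SE), the Itpr1 region 2.14 ± 0.22 and the Mapkapk3 region 2.05 ± 0.22. The region chr4:120032210-120033497 in Hivep3, a zinc finger gene, had 71.2, 82.7 and 58.5 CPM in 8w BM and 15.9, 19.2 and 22.3 CPM in E12.5 FL (log2 fold change 1.89 ± 0.19 (SE), adjusted p = 8.2e-11). The region chr5:25100466-25101676 in Prkag2, a regulatory subunit gene of AMP-activated kinase with a start window shown above, had 49.5, 66.8 and 45.3 CPM in 8w BM and 18.6, 22.2 and 22.6 CPM in E12.5 FL (log2 fold change 1.35 ± 0.19 (SE), adjusted p = 1.4e-07). No library of the groups overlapped in these, which was a condition of their choice. Regions in Impa2 (1.76), Sdcbp2 (1.61), Lrp1 (1.48) and Abi3 (1.17), a gene of an actin regulatory complex, were higher too.

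Regions lower in 8w BM than in E12.5 FL included, beside Peg3, the region chr3:116536274-116537578 in Dbt, with 2.25, 1.8 and 3.53 CPM in 8w BM and 10.4, 16.2 and 15.2 CPM in E12.5 FL (log2 fold change -2.48 ± 0.35 (SE), adjusted p = 3.9e-07). The region chr12:59039762-59041312, 2555 bp from Trappc6b, had 13.1, 12.9 and 11.3 CPM in 8w BM and 48, 50.1 and 47.6 CPM in E12.5 FL (log2 fold change -1.96 ± 0.21 (SE), adjusted p = 2.7e-10). The libraries of each group lay close together there. The regions nearest Vmn1r223 (-2.95), Rnf216 (-2.54), Tenm3 (-1.94), Kcnn2 (-1.77) and Kcns3 (-1.75) were also lower.

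Grouped by the function of the nearest gene, the lists of known genes gave small counts. Of 30 regulators of blood stem and progenitor cells, mostly transcription factors, 9 had a broad region, 11 regions in all. In E12.5 FL against E12.5 PL, 1 of the 11 was higher and 6 were lower, beside 23.1% and 26.4% of all regions. Among the lower ones, regions of Meis1, Etv6, Mecom and Zfp36l1 had adjusted p of 0.032, 0.026, 0.02 and 0.017. The higher one, chr2:103944841-103946259, lay 12353 bp from Lmo2, and had 34.2, 26 and 30.9 CPM in E12.5 FL, against 11.8, 9.23 and 11.3 CPM in E12.5 PL (log2 fold change 1.49 ± 0.20 (SE), adjusted p = 4.3e-08). The region at a start of Ldb1, whose product binds LMO2 in a shared complex, was lower, with 34.6, 18.3 and 32.9 CPM in E12.5 FL, against 74.3, 61 and 72.4 CPM in E12.5 PL (log2 fold change -1.27 ± 0.19 (SE), adjusted p = 3.5e-07). The region chr17:84140367-84142195, 42643 bp from Zfp36l2, an mRNA decay factor, was higher in 8w BM than in E12.5 FL (log2 fold change 1.18) and lower in E12.5 FL than in E12.5 PL (log2 fold change -0.70, a call lost with loess offsets and without E12.5 PL 2). The Tal1 region, chr4:115062500-115064143, differed across the 9 groups (adjusted p = 0.015) but passed none of the 7 comparisons between stages, with log2 fold changes of 0.26 between E12.5 FL and E12.5 PL and of -0.12 between 8w BM and E12.5 FL.

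Of 37 immediate early and stress genes, 8 had a broad region each, and 7 of the 8 were lower in E12.5 FL than in E12.5 PL with 0 higher, beside 26.4% and 23.1% of all regions. The 8 include Klf9. Calls nearer the threshold were those of Egr2 (-0.47, adjusted p = 0.016) and Ier5 (-0.48, adjusted p = 0.038). With total counts the split of all members in this comparison turned from 359 higher and 437 lower to 506 and 279. The list was not recounted with that scaling. The region chr15:79347183-79348553 in Maff, a small Maf factor gene, had 55.5, 32.5 and 51.8 CPM in E12.5 FL, against 133, 127 and 112 CPM in E12.5 PL (log2 fold change -1.41 ± 0.17 (SE), adjusted p = 2.3e-09). The region 14410 bp from Btg2, an antiproliferative gene, had a log2 fold change of -1.36, and the region 41205 bp from Atf3, a stress-induced factor, one of -1.19. In 8w BM against E12.5 FL 4 of the 8 were higher and 0 lower, beside 10.7% and 5.7% of all regions, with Btg2 at 1.17 and Atf3 at 0.97. Such genes respond to cell handling as well as to signals in the tissue, and the part of handling was not tested.

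Of 20 genes of the TGF-beta and BMP pathways, 4 had a broad region, 5 regions in all, of which 3 were higher and 2 lower in E12.5 FL than in E12.5 PL, where 23.1% of all regions were higher and 26.4% lower. The higher ones were in Smad3 (1.58), a signal-carrying SMAD gene, and in or near Tgfbr2, the type II receptor gene, with 1.52 at chr9:116122868-116124129. The lower ones were near Smad6, described above, and Ski (-1.51), a corepressor gene. The Ski region was higher in 8w BM than in E12.5 FL (1.28). Of 25 lymphoid genes, 3 had 5 regions, of which 4 were lower in E12.5 FL, among them Foxo1 (-1.09), a call lost without E12.5 PL 2. The Sox4 call (-0.44, adjusted p = 0.036) was near the threshold.

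The remaining lists had 1 to 3 regions or none. The region 39207 bp from Cxcr4, the receptor that keeps stem cells in marrow, was higher in E12.5 FL than in E12.5 PL (0.84) and in 8w BM than in E12.5 FL (0.75). The second of these calls was lost in 4 alternative fits. The region of the erythroid gene Ank1 was higher in 8w BM than in E12.5 FL (0.77). Of 3 megakaryocyte regions 1 was higher in E12.5 FL than in E12.5 PL, in Itgb3 (0.71, lost in 6 alternative fits). Of 2 neutrophil regions 1 was, nearest Csf2ra (1.13), beside 23.1% of all regions. In 8w BM against E12.5 FL the Fyb (1.34) and Ctsg (1.22) regions of these lists were higher, beside 10.7% of all regions. The trophoblast gene Ovol2 gave 0.98 between E12.5 FL and E12.5 PL. Mast cell genes had no broad region. The imprinted growth factor gene Igf2 had a region at a start that was lower in E12.5 FL than in E12.5 PL (-0.90, adjusted p = 0.0025).

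At some genes with several broad regions, these were called in different directions in E12.5 FL against E12.5 PL. In that comparison 25.3% of members were higher and 30.8% lower, beside 23.1% and 26.4% of all regions. Whether directions were more mixed than these shares give was not tested. Gse1, Map3k1, Plxnc1, Prkag2 and Trim2, with 3 broad regions each, are not described here. App, the amyloid precursor gene, had 3. The region chr16:85132621-85133953 had 4.3, 4.92 and 2.7 CPM in E12.5 FL, against 30.8, 50.6 and 28.7 CPM in E12.5 PL (log2 fold change -3.20 ± 0.36 (SE), adjusted p = 2.7e-10). The region chr16:85071725-85073056 went the other way, with 8.15, 12.9 and 9.81 CPM in E12.5 FL, against 2.89, 6.08 and 3.93 CPM in E12.5 PL (log2 fold change 1.25 ± 0.32 (SE), adjusted p = 0.0012). The third, at a start, had a log2 fold change of -0.22 that missed the test. Ubash3b, a phosphatase gene, had 1 region higher in E12.5 FL (1.33) and 2 lower (-0.76 and -1.03), the last at a start. Trak1 had 1 higher (0.77) and 1 lower (-1.56), while the third missed the test (-0.30). Bach2 had 2 lower and 1 that missed the test. All 3 regions of Lrp1 were higher in E12.5 FL than in E12.5 PL (0.96, 1.17 and 0.64). Abr and Pde4d, each with 4, had 1 called region in this comparison, at 1.02 and 1.62.

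The widest region, in Spaca6, had 55, 55.3 and 60.1 CPM in E12.5 FL, against 124, 137 and 116 CPM in E12.5 PL (log2 fold change -1.15 ± 0.18 (SE), adjusted p = 4.7e-07), and 54.6, 92.2 and 54.3 CPM in Perinatal BM against 34.6, 40.8 and 44.2 CPM in E16.5 FL (log2 fold change 0.76 ± 0.18 (SE), adjusted p = 0.0043). This second call was lost with loess offsets, with the 2 groups alone and without Perinatal BM 2. The Arid1b and Wls regions passed no test between stages. Of the regions with microRNA genes, the one holding let-7i was lower in E12.5 FL than in E12.5 PL (-0.66, adjusted p = 0.0015). The one beside the miR-17 cluster was lower there too (-0.62, adjusted p = 0.001). Both calls were lost with total counts and with loess offsets. The one holding miR-34b and miR-34c had 6.55, 8.51 and 7.73 CPM in 8w BM and 8.38, 7.73 and 8.34 CPM in E12.5 FL and passed no test.

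Of the named members, the 2 of highest level per kb had no protein-coding gene within 50 kb. The region chr9:3000190-3001623, 334324 bp from the nearest gene Alkbh8, averaged 1796 CPM over the 9 groups or 1252 CPM per kb. Another, chr14:19417192-19418469, averaged 480 CPM. There were 8 members that started below 3.2 Mb of a chromosome, within 200 kb of where its sequence begins, a set chosen after its values were seen. All 8 were lower in Perinatal BM than in E16.5 FL, with log2 fold changes of -1.65 to -0.65, and lower in 8w BM than in E12.5 FL, with -1.95 to -0.68. In E12.5 FL against E12.5 PL, 7 were higher and 1 lower. Without them, 25 members were lower in Perinatal BM than in E16.5 FL and 93 in 8w BM than in E12.5 FL. The region chr14:19417192-19418469 had 593, 288 and 514 CPM in Perinatal BM and 1044, 862 and 906 CPM in E16.5 FL (log2 fold change -1.01 ± 0.19 (SE), adjusted p = 0.00026). The regions chr13:119597533-119599344 in Tmem267 (-1.15) and chr3:8245091-8246733, nearest Stmn2 (-1.44), were lower in the same comparison. The sources used here do not say whether multiply mapping reads were kept, and the part of repeats in these levels was not tested.

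In the culture experiment, 612 members matched a region of the cultured table by an overlap of 50% of both. Peaks were called in 86.4% of members per co-SHI library and in 93.7% per SHI library on average. Of the 612, 1 was higher in co-SHI than in SHI, against 0.228% of all cultured regions, and 8 were lower, against 0.332%. These counts rested on single libraries, with 33 called without co-SHI 3, 3 without SHI 1, 2 without co-SHI 2 and 0 without SHI 2 or co-SHI 1. The region chr14:19417192-19418469 was 1 of the 8, with 106, 153 and 112 CPM in co-SHI and 279, 508 and 94.6 CPM in SHI (log2 fold change -1.24 ± 0.24 (SE), adjusted p = 0.0099). The region nearest Stmn2 (-1.11) and a region in Hip1r (-0.85) were lower too. At both chr14:19417192-19418469 and the region nearest Stmn2, the co-SHI and SHI libraries overlapped.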

How the data were processed

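ATAC-seq was measured in 26 developmental and 6 cultured libraries of LSK cells. Build mm10 and the tools MACS2, DiffBind, Trim Galore, HOMER and deepTools are named in the submitters' processing notes. Sources used here do not give the aligner, peak settings, Tn5 shift, duplicate removal or the merging of peaks into regions, and the merging set the widths that chose the members. The deposited tables hold raw counts per region, with no scaling. The deposited peak lists hold the fold enrichment ratio of each peak, its score and its −log10 p-value and q-value, all from the authors' peak calling. Only positions and −log10 q were used, to count peaks and overlap them. The cultured table has 3 further count columns that entered no comparison.

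Regions were kept by filterByExpr (minimum count 10), scaled by TMM and tested two-sided by the quasi-likelihood test (glmQLFit, glmQLFTest) of edgeR 4.0.16 under R 4.3.3. P-values were adjusted after Benjamini and Hochberg over the whole table, at 0.05. All 26 developmental libraries entered a single model of group means. The 6 cultured libraries were fitted alone. A fold change is of the group named first. Its SE was derived from the test, as the size of the log2 fold change over the square root of the F statistic. CPM are TMM-scaled, and log2 fold changes are those of the fit. A prior count of 2 entered only the log CPM used for the loess offsets and for the check of replicate numbers. The script was tested on simulated data. Alternatives were DESeq2 1.42.0, its size factors, total counts, cyclic loess offsets of limma 3.58.1 (span 0.3, 3 iterations), no filter, the compared groups alone, a replicate block, thinning to the smallest library, other width limits, leaving out each library, and peaks with −log10 q of at least 5. Members holding no start, those away from chromosome starts and a fit without E12.5 PL were added after seeing the data.

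Members and gene lists were chosen with earlier results of these data known. Named regions were the 10 widest, the 10 of highest mean CPM, the smallest p among called regions that had a log2 fold change of 1 or more in size and no overlap of libraries (10 in each direction in 4 comparisons and 5 in the others, 1 per gene, no predicted genes), up to 4 called per gene list, genes with 3 or more members, and those nearest the width limit. MicroRNA regions were named after their values were seen. Coordinates are mm10, counted from 1, and starts and sequences are from RefSeq GRCm38.p6, which gave none for 1 chromosome. Python 3.11.15 and matplotlib 3.10.9 were used. The precision of each value is limited by the total count of its library, and p-values cover the spread between libraries only.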

Additional observations from a re-analysis of the deposited data

How the results depend on the processing

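Of the shares of members called, recomputed under the alternatives, 476 stayed close to the reported ones and 44 moved, and 26 medians and 11 peak shares moved too. Among the 89 calls of regions named by the smallest p, none changed direction, and all stayed past the threshold with size factors, total counts, no filter, the replicate block and thinning. DESeq2 and loess offsets lost 3 each. Of all 312 calls of any named region, 137 were lost in at least 1 alternative fit. With E12.5 FL set against E12.5 PL, total counts gave 19.6% of members lower, and the median log2 fold change was -0.32 with size factors and with DESeq2, 0.18 with total counts and -0.0036 with loess. For Perinatal BM against E16.5 FL, total counts gave 4.15% higher and 3.87% lower, loess 0.704% and 5.7%, and the groups alone 4.23% higher, while members of 1000 bp or more gave 1.52% lower. The median there was 0.11 with size factors and DESeq2, -0.01 with total counts, -0.17 with loess and 0.07 with the groups alone. For 8w BM against E12.5 FL, total counts gave 10.3% higher and 14% lower, loess 5.7% and 18%, and the groups alone 11% lower. The median was 0.04 with size factors and DESeq2, -0.07 with total counts, -0.20 with loess and 0.05 with the groups alone. For 6w and 8w BM against Perinatal and 1w BM, total counts gave 9.43% lower with a median of -0.08, and thinning gave 2.96% higher. For E16.5 FL against E12.5 FL the median was 0.06 with loess, 0.0025 with total counts and -0.01 with the groups alone. For 1w BM against Perinatal BM, called members were 0.985% with the replicate block and without E12.5 PL, 0.71% with the groups alone, 0.704% thinned, 0.211% with DESeq2, and 0.213% and 1.16% with width limits of 1000 and 1500 bp. The median was -0.04 with loess and 0.03 with total counts. For 3w and 4w BM against 1w BM the groups alone gave 1.84%, and the median was -0.02 with loess. For co-SHI against SHI a limit of 1500 bp gave 0.637%. The cause of these shifts was not tested.

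Leaving out each library in turn gave 69.7% to 74.7% of members across the 9 groups and 33.3% to 40.6% across the 8. It gave 23.1% to 25.9% higher and 25.9% to 31.2% lower in E12.5 FL than E12.5 PL, 4.71% to 12% and 1.13% to 2.6% for Perinatal BM against E16.5 FL, 2.74% to 4.93% and 4.43% to 7.18% for 6w and 8w BM against Perinatal and 1w BM, and 10.1% to 17.9% and 5.21% to 8.44% for 8w BM against E12.5 FL. Called in either direction were 0% for E16.5 FL against E12.5 FL, 0% to 0.844% for 1w BM against Perinatal BM, 0.633% to 1.69% for 3w and 4w BM against 1w BM and 0% to 5.39% for co-SHI against SHI. Members' medians ran from -0.13 to -0.07 with E12.5 FL set against E12.5 PL, 0.15 to 0.19 for Perinatal BM against E16.5 FL and 0.07 to 0.15 for 8w BM against E12.5 FL. Calls of Plk5, Peg3 and Lrp1 (both in 1w BM against Perinatal BM), Zfp825, Sp110, Rapgef4, Sgms2, Vmn1r2 and Slc4a4 were lost in at least 1 of these fits.

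Members with a peak in a library averaged 35.4% in E12.5 FL and 49.4% in E12.5 PL with −log10 q of at least 5. With at least 50% of a member covered by peaks they averaged 2.44% in E12.5 FL, 1.2% in E16.5 FL, 8.73% in Perinatal BM, 22.4% in 1w BM, 21.7% in 3w BM, 13.2% in 4w BM, 11% in 6w BM, 14.1% in 8w BM and 10.8% in E12.5 PL. Deviations of same-numbered libraries from their group means correlated by -0.098 to 0.17 (median 0.0112), with 5 of 100 pairs over 0.1. Those of differently numbered libraries correlated by -0.174 to 0.167 (median -0.0053), with 5 of 200 pairs over 0.1. Whether same-numbered libraries shared a litter or a batch was not tested. With the replicate block 1075 members differed across the 9 groups. Libraries held 2845113 to 10167340 counts. Thinned to the smallest, 737 members were called in E12.5 FL against E12.5 PL instead of 796, 278 in 8w BM against E12.5 FL instead of 351, and 10 in 1w BM against Perinatal BM instead of 6.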
